A study of Drosophila melanogaster with 9 samples.

Results

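Artichoke (atk, FBgn0036995) is 1 of 17490 genes counted in a study of social isolation in Drosophila melanogaster. It was chosen by its identifier and with its higher level after 7 days alone already known, so its own levels and changes are given as a description, without a test. The study measured polyadenylated RNA in whole heads of flies labelled wild type Canton-S w1118 (iso1CJ), a genotype shared by all groups, with no other allele or agent named. The 3 conditions were group housing over 7 days, isolation over 7 days (7 days alone) and isolation over 1 day (1 day alone). No flies were sampled after group housing over 1 day. Comparisons of 1 day alone with the group thus differ in housing and in day together, and the 2 cannot be told apart. Heads were taken between 0.5 and 2 h after lights on, and each of the 9 libraries, 3 per condition, pooled 200 heads. The labels give neither sex nor age at collection, nor how many flies shared a group. Each value is an average over many flies and over the cells in the sample. In 5 of 9 libraries these included tissue from outside the head, as described below.

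Artichoke encodes a secreted protein built of leucine-rich repeats, short segments that stack into a curved surface for binding other proteins. In the Drosophila embryo it is an extracellular matrix protein needed for normal ciliated sensory organs, in which supporting cells surround the sensory endings of neurons with matrix. The extracellular matrix as a whole is made of basement membrane proteins (collagen IV, laminins, nidogen, perlecan), apical matrix proteins, enzymes that cross-link or cut them, and receptors such as the integrins.

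The gene lies on chromosome arm 3L from 20454690 to 20464862, on the minus strand (BDGP6), and spans 10173 bases with 6 exons and 5188 exon bases. Its 3 annotated transcripts all hold the same coding sequence of 4605 bases, for a protein of 1535 residues, and the same 3′ UTR of 83 bases. They differ in their first exon and thereby in the 5′ UTR, which has 380 bases in atk-RA, 65 in atk-RB and 182 in atk-RC. The first exons lie at 20464034 to 20464348, 20459429 to 20459621 and 20464746 to 20464862, respectively. Reads were counted per gene, so the transcripts could not be told apart.

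Exons of 2 other genes share bases with those of atk. Uhg8, a small nucleolar RNA host gene on the plus strand (20453293 to 20454731), shares 42 bases, all in the 3′ UTR of atk. CG42764, on the same strand as atk (20464714 to 20466041), shares 117 bases, which are the whole first exon of atk-RC. Together these are 159 bases, 3.06% of the exon bases of atk, and 5029 are not shared. mag, which encodes the lipase Magro and lies within the first intron of atk-RA and atk-RC on the other strand (20460683 to 20462274), shares none. The counts of Uhg8 and CG42764 together were 121 to 186 per library, against 1443 to 4563 for atk.

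**Figure D1:**
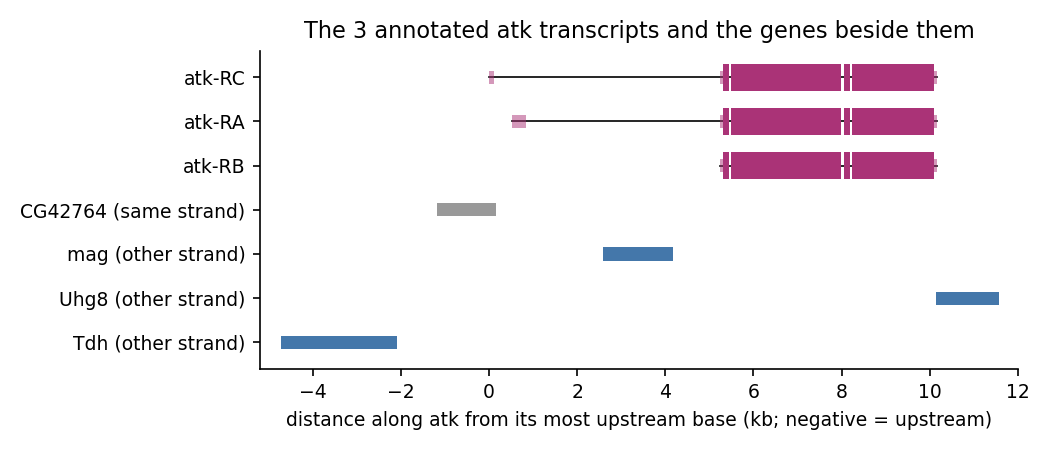
Annotated atk transcripts and the genes beside them, by distance in kb along atk from its most upstream base. Tall boxes are coding exons, low boxes are UTR exons and lines are introns of atk; for the other genes a bar shows the whole gene span, in blue on the other strand and in grey on the same strand. The 3 transcripts differ in the first exon, CG42764 covers the first exon of atk-RC, mag lies within the long first intron and Uhg8 touches the last exon.

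Library totals were 39698143 to 53514747 counts, with the 3 libraries of 1 day alone below the other 6. Transcripts of gut and male tract, tissues outside the head, were present in 5 of 9 libraries: group replicate 2, replicates 1 and 3 of 7 days alone, and replicates 1 and 2 of 1 day alone. Markers of these tissues (43 genes) summed to 662 to 1521 CPM (read counts scaled to the TMM-adjusted library size) in those 5 and to 3.20 to 6.92 CPM in the other 4. Of head tissues, neuronal markers summed to 2561 to 3011 CPM and photoreceptor markers to 48290 to 61830 CPM. Of the antennal support cell markers, lush, Obp83a and Obp83b were low in all libraries (0.262 to 4.52 CPM). Values that touch atk are given below for all libraries and within the libraries with and without body tissue.

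The level of atk after 7 days alone was several times that of the group, while after 1 day alone it overlapped the group. In group-housed flies it was 31.5, 29.0 and 36.0 CPM in replicates 1 to 3. After 1 day alone it was 36.1, 39.0 and 34.8 CPM. After 7 days alone it was 86.8, 98.8 and 89.5 CPM. All 3 libraries of 7 days alone lay above the other 6, while the libraries of the group and of 1 day alone overlapped. The same separation was found for 370 of 12963 tested genes (2.85%), of which atk is one.

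Group means were 32.2 ± 3.55 CPM for group housing, 36.6 ± 2.17 CPM for 1 day alone and 91.7 ± 6.26 CPM for 7 days alone (SD, n = 3 each). These correspond to means of 1670, 1521.3 and 4425 reads. The spread between libraries was wider than counting error in each condition. The coefficient of variation was 11.0%, 5.91% and 6.83%, in the same order, where read counting alone gives 2.45%, 2.56% and 1.5%. In bulk RNA of a whole head, a change in the number of cells that express a gene and a change in RNA per cell cannot be told apart.

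**Figure D2:**
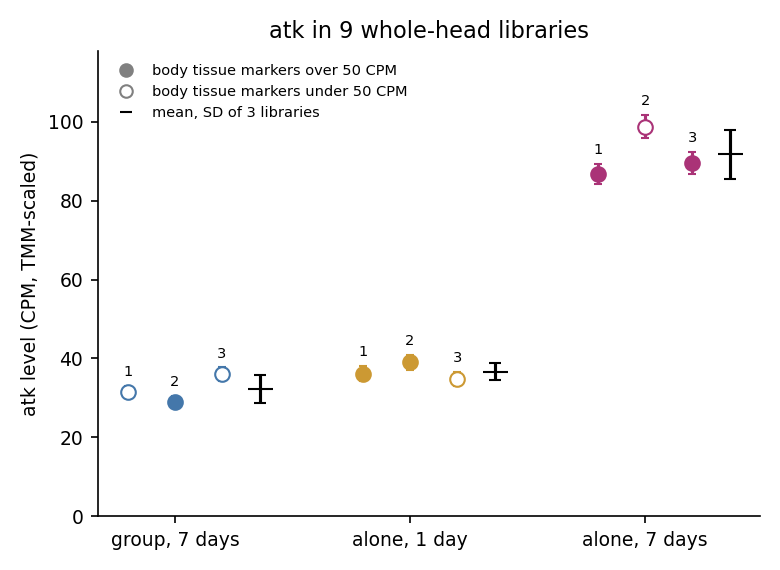
Level of atk in CPM (TMM-scaled) in each library, by housing group, with the replicate number above each point. Bars on points are 95% Poisson intervals of the counts; black marks are the mean and SD of 3 libraries; filled points are libraries with body tissue. The libraries of 7 days alone sit between 86.8 and 98.8 CPM and the other 6 between 29.0 and 39.0 CPM.

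After 7 days alone, atk was 2.85 times the group mean, a log2 difference of 1.51 (SE 0.107 from the spread between libraries, n = 3 against 3), and the ratio of single libraries ran from 2.41 to 3.40. Among libraries with body tissue (2 against 1) the ratio was 3.04, and among those without (1 against 2) it was 2.93. The difference was thus as large within libraries of either kind as over all of them.

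After 1 day alone the ratio to the group was 1.14, a log2 difference of 0.19 (SE 0.103), and the 2 ranges overlapped (34.8 to 39.0 CPM against 29.0 to 36.0 CPM). It was 1.29 with body tissue (2 against 1) and 1.03 without (1 against 2). Between the isolation times, 7 days alone was 2.503 times 1 day alone, a log2 difference of 1.32 (SE 0.0743). That ratio was 2.35 with body tissue (2 against 2) and 2.84 without (1 against 1). The order of the levels was therefore 7 days alone above the other 2 conditions, which did not differ beyond their spread.

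Set against other genes, atk changed from a level below the median to one above it. Per kilobase of exon, its level was 6.201 ± 0.684 CPM per kb in the group, 7.06 ± 0.418 after 1 day alone and 17.7 ± 1.21 after 7 days alone (SD, n = 3). Its rank per kilobase among 12963 tested genes was 6764 to 7494 in the group, 6787 to 7119 after 1 day alone and 3887 to 4314 after 7 days alone, with 1 the highest. Among the 8528 genes averaging 5 CPM or more, its log2 difference ranked 295 from the top at 7 days alone minus group, 1233 at 1 day alone minus group and 21 at 7 days minus 1 day alone. Among all 12963 tested genes, low ones included, it ranked 1820, 4084 and 110, and at 7 days minus group the 95th percentile of all genes was 1.93. The median log2 difference of all tested genes was 0.01, 0.03 and 0.04 in these comparisons. The 956 tested genes of similar exon length (4364 to 6166 bases) had medians of -0.04, -0.11 and 0.10.

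Of the marker lists summed, those of the fat body and the photoreceptors had ranges after 7 days alone that did not overlap those of the group. The other lists of head tissues overlapped. The 5 head fat body markers (apolpp, Lsp2, Yp1, to and fit, none at 0 in any library) summed to 5975 to 6562 CPM in the group, 5613 to 6712 CPM after 1 day alone and 7220 to 8627 CPM after 7 days alone. Most of the sum was apolpp, the lipophorin precursor, at 4818 to 5187 CPM in the group and 4926 to 5962 CPM after 7 days alone. Of the 5, only fit, a satiety gene of the fat body, passed the edgeR test (Benjamini-Hochberg adjustment) at 7 days minus group. It rose by 1.52 (log2, adjusted p = 0.017), and by 1.79 (adjusted p = 0.00332) already at 1 day minus group. Lsp2, a larval serum storage protein, was at 1010 to 1312 CPM in the group and 2071 to 2453 CPM after 7 days alone (log2 difference 0.92, adjusted p = 0.0527). The log2 difference from the group at 7 days was 0.11 for apolpp (adjusted p = 0.88), 0.36 for to (adjusted p = 0.43) and -0.62 for Yp1 (adjusted p = 0.917). Yp1, a yolk protein, stood at 419.4 CPM in replicate 1 of 1 day alone and at 2.86 to 21.2 CPM in the other 8 libraries.

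The 4 photoreceptor markers (ninaE, Arr2, trp and ninaC) summed to 61700 to 61830 CPM in the group, 48290 to 56030 CPM after 1 day alone and 55550 to 60230 CPM after 7 days alone. None of the 4 passed the edgeR test in either comparison with the group, with log2 differences of -0.17 to -0.08 at 7 days (adjusted p = 0.88 to 0.962) and -0.37 to -0.21 at 1 day (adjusted p = 0.127 to 0.785). At 1 day minus group the SE of that test was 0.511 for ninaE, 0.276 for Arr2, 0.0975 for trp and 0.112 for ninaC. ninaE stood at 37990 ± 178 CPM in the group and 31580 ± 1950 CPM after 1 day alone (SD). Its SE was thus wider than the spread between its libraries, and the missing call says little about change. The part of either tissue in the result for atk was not tested. Sums of the neuronal markers were 2815 to 3005 CPM in the group and 2652 to 2873 CPM after 7 days alone, and those of the 4 glial markers 2579 to 2845 and 2511 to 2913 CPM. Antennal support cell markers (lush, Obp83a, Obp83b, Obp19d and nompA) summed to 1047 to 1158 CPM and 950 to 1118 CPM in the same groups. In these 3 lists the summed ranges overlapped between the 2 groups. Those of muscle (1926 to 2010 and 1906 to 2088 CPM) and haemocyte markers (235.3 to 303.8 and 242.7 to 268.5 CPM) overlapped too. After 1 day alone the muscle sum (2292 to 2501 CPM) and the glial sum (2899 to 3117 CPM) lay above the group, and the haemocyte sum (202.7 to 220.7 CPM) below it. Of the muscle markers, Act88F, Mf and Prm rose by the edgeR test there and Mhc did not pass, where 1.25% of all tested genes rose. No glial or haemocyte marker passed the edgeR test at 1 day minus group. The log2 differences were 0.11 for Gs2, 0.28 for nrv2, 0.20 for Eaat1 and -0.10 for repo. For the haemocyte markers they were -0.42 for Hml, -0.23 for He, 0.07 for NimC1 and 0.01 for eater.

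Nearly all of the antennal sum was the odorant-binding protein gene Obp19d, at 1033 to 1138 CPM in the group and 937.9 to 1106 CPM after 7 days alone. lush, another odorant-binding protein gene, was at 3.65 to 4.52 CPM in the group, 1.90 to 2.23 CPM after 1 day alone and 2.15 to 2.5 CPM after 7 days alone, so that the group lay above both. It fell by 0.97 (log2, adjusted p = 0.0183, edgeR) at 1 day minus group and differed by -0.77 (adjusted p = 0.15) at 7 days minus group. At 7 days minus group Obp83a differed by -2.24 (adjusted p = 0.56) and Obp83b by -1.43 (adjusted p = 0.684), where group replicate 2, at 0.262 and 0.562 CPM, lay within or below the range of 7 days alone. The part of these cells in the result for atk was not tested.

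Among the neighbours of atk, Tdh was higher both after 7 days and after 1 day alone, and ZnT77C after 1 day alone. Of the 13 genes that overlap atk or are the 5 nearest on either side, 9 had enough counts to be tested. Of the other 4, all within the span of Uhg8 and at 0 to 7 counts per library, 3 are small nucleolar RNA genes and FBgn0086082 has no symbol in the annotation. By the edgeR quasi-likelihood test with Benjamini-Hochberg adjustment over all tested genes, 1 of 9 rose and 0 fell at 7 days alone minus group, where 0.247% of all tested genes rose and 0.054% fell. At 1 day alone minus group, 2 of 9 rose and 0 fell, against 1.25% and 2.71% of all genes. At 7 days minus 1 day alone, 0 of 9 passed (1 at an unadjusted p under 0.05, 1 with DESeq2, 0 with limma-voom), against 3.11% higher and 1.51% lower among all genes. Without 1 library in turn, the number called at 7 days minus group was 0 without group replicate 2 or replicate 2 or 3 of 7 days alone, and 2 without replicate 1 of 7 days alone or replicate 3 of 1 day alone. At 1 day minus group it was 0 without group replicate 2 or replicate 3 of 7 days alone, and 1 without replicate 2 of 7 days or of 1 day alone. It was 1 between the isolation times without replicate 3 of 1 day alone. Over all genes at 7 days minus group, 3 were called without group replicate 2 or replicate 2 of 7 days alone, and 4 without its replicate 3. The number was 31 without replicate 1 of 7 days alone and 193 without replicate 3 of 1 day alone, against 39 in the main fit. In the fits named for 1 day minus group, 137 to 255 of all genes were called, against 513.

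Tdh encodes threonine dehydrogenase, an enzyme of threonine breakdown. It is read from the other strand (20466944 to 20469592), 2081 bases from the most upstream base of atk, so that both genes run away from the interval between them, which holds most of CG42764. It shares no exon base with atk. Tdh was at 50.8, 45.4 and 49.3 CPM in the group, 71.2, 73.0 and 77.0 CPM after 1 day alone, and 84.7, 100.3 and 91.2 CPM after 7 days alone. None of its 3 conditions overlapped another.

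Tdh rose by 0.92 (log2, SE 0.0708, adjusted p = 0.00669, edgeR) at 7 days alone minus group and by 0.60 (SE 0.0705, adjusted p = 0.00552) at 1 day alone minus group. Between the isolation times it differed by 0.32 (SE 0.0703, adjusted p = 0.0506). At 7 days minus group the adjusted p was 0.0926 without group replicate 2, 0.0986 without replicate 2 of 7 days alone and 0.117 without replicate 3 of 7 days alone. At 1 day minus group it was 0.0567 without group replicate 2 and 0.0568 without replicate 3 of 7 days alone. Over the 9 fits that left out 1 library, the adjusted p of Tdh ran from 0.00355 to 0.117 in the former comparison and from 0.00375 to 0.0568 in the latter. In the libraries with body tissue alone it was 0.0592 at 7 days minus group.

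ZnT77C, a zinc transporter gene on the strand of atk (20484293 to 20494921), was the other neighbour past the threshold. Its level was 13.6, 13.4 and 14.3 CPM in the group, 20.4, 19.4 and 18.7 CPM after 1 day alone, and 16.2, 19.1 and 19.5 CPM after 7 days alone. All libraries kept alone, at either time, lay above the 3 group libraries. It rose by 0.50 (log2, SE 0.0801, adjusted p = 0.0177, edgeR) at 1 day alone minus group, and differed by 0.41 (adjusted p = 0.143) at 7 days alone minus group. The former call was lost without group replicate 2 (adjusted p = 0.0919), without replicate 2 or 3 of 7 days alone (0.0514 and 0.0747) and without replicate 2 of 1 day alone (0.062). It was also lost in the libraries with body tissue alone (0.161).

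None of the 3 genes that overlap atk passed the edgeR test over all 9 libraries. mag, the lipase gene in the intron, was at 3.35 to 7.76 CPM in the 5 libraries with body tissue. In the 4 without it, mag was at 0.245 and 0.463 CPM in the group, 0.348 CPM after 1 day alone and 1.95 CPM after 7 days alone. Its log2 difference was 1.19 at 7 days alone minus group (adjusted p = 0.88) and 1.17 at 1 day alone minus group (adjusted p = 0.743). Without 1 library in turn these ran from 0.50 to 3.54 and from 0.43 to 3.55. For mag the difference at 7 days minus group was 0.11 in the libraries with body tissue and 2.46 in those without, where 7 days alone has a single library. CG42764 was at 1.21, 1.43 and 0.784 CPM in the group, 1.08, 1.59 and 1.16 CPM after 1 day alone, and 1.695, 1.78 and 1.85 CPM after 7 days alone. Its 3 libraries of 7 days alone were the highest, with a log2 difference from the group of 0.64 (SE 0.275, adjusted p = 0.794). In the libraries without body tissue that difference was 0.82, again with a single library of 7 days alone. Uhg8 differed by -0.07 at 7 days alone minus group, and stood at 1.68 to 2.06 CPM in all libraries. The other 4 tested neighbours, CG5199, CG32428, CG5969 and isoQC, differed by -0.13 to 0.02 at 7 days minus group and by -0.15 to -0.01 at 1 day minus group.

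In a window of 50 kb on either side, 29 of 33 other genes were tested. At 7 days alone minus group 1 rose (Tdh) and 0 fell, and their median log2 difference was 0.06 against 0.01 for all tested genes. At 1 day alone minus group 2 rose (Tdh and ZnT77C) and 0 fell, with a median of 0.06 against 0.03. Between the isolation times 0 rose and 0 fell by the edgeR test, with a median of 0.02 against 0.04. CG17637 and CG18281, picked out after their values were seen, had larger log2 differences from the group at 7 days (2.42 and 1.79) than atk, with an adjusted p of 0.88 each. CG17637 was at 0 to 0.0188 CPM in the libraries without body tissue and at 2.10 to 7.76 CPM in those with it, and CG18281 at 0.0188 to 0.0464 and 1.59 to 3.75 CPM.

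**Figure D3:**
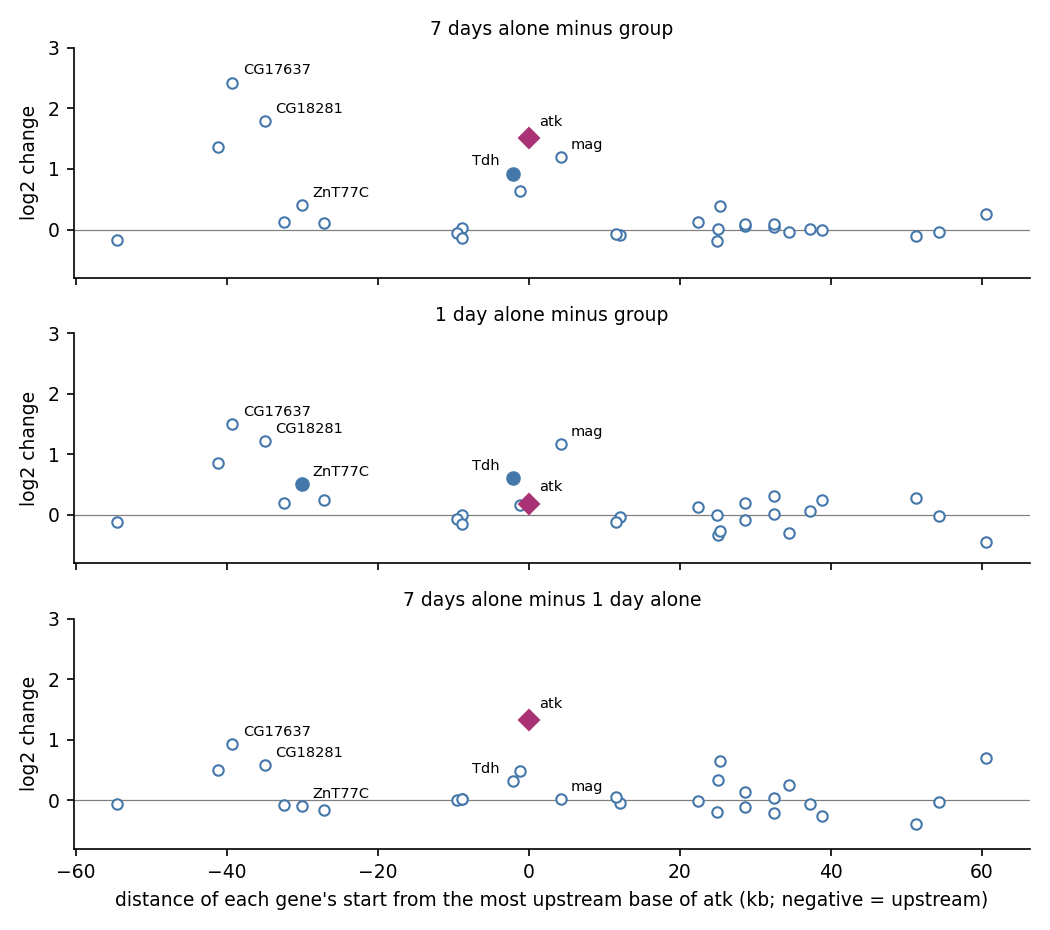
Log2 change (edgeR) of each tested gene within 50 kb of atk in the 3 comparisons, by the distance of its start from the most upstream base of atk in kb. Filled circles passed the threshold (adjusted p under 0.05), open circles did not, and the diamond is atk, shown as a description. Tdh is filled at 7 days minus group (0.92) and at 1 day minus group (0.60), and ZnT77C at 1 day minus group (0.50).

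CG10512, Bcat and Rpn2 had the levels that followed atk most closely over the 9 libraries. Likeness was the Pearson r of log2 CPM with atk among 8527 other genes averaging 5 CPM or more. Because the 9 libraries are the same for every gene and share the group structure, r is a description only. The median r over the 8527 genes was 0.01, 45 genes were over 0.9 and 10 over 0.95. CG10512, whose exons overlap Targ2 on the other strand over 6.47% of their bases, came first with r = 0.986, then Bcat, a branched-chain amino acid aminotransferase, with 0.969, and Rpn2, a proteasome subunit, with 0.969. They were followed by Sardh (sarcosine dehydrogenase, 0.968), D2hgdh (D-2-hydroxyglutarate dehydrogenase, 0.961) and CG15093 (0.958). Then came CG4752 (0.957), Ahcy (adenosylhomocysteinase, 0.954), Lst (the peptide hormone limostatin, 0.953) and Irp-1B (iron regulatory protein 1B, 0.952). The next gene had 0.948. Tdh came at rank 122 with r = 0.824.

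None of these 10 changed as much as atk. At 7 days alone minus group their log2 differences were 0.21 for Rpn2, 0.30 for CG10512, 0.42 for CG4752, 0.52 for D2hgdh, 0.55 for Ahcy and 0.59 for CG15093. They were 0.64 for Bcat, 0.68 for Irp-1B, 0.75 for Lst and 1.06 for Sardh, against 1.51 for atk. At 1 day alone minus group they lay between -0.08 (Bcat) and 0.24 (Irp-1B), against 0.19 for atk. Sardh was at 24.8, 21.9 and 23.7 CPM in the group, 21.0, 22.0 and 25.04 CPM after 1 day alone, and 45.7, 54.9 and 45.9 CPM after 7 days alone. In Sardh and in atk, replicate 2 was the highest of the 7-day libraries, and it is the only one of them without body tissue. It was the highest also in Bcat, D2hgdh, CG15093, CG4752, Ahcy, Irp-1B and Tdh, but not in CG10512, Rpn2 or Lst. Exons of CG15093 overlap an antisense RNA gene over 86.8% of their bases, so its reads are uncertain if counting ignored the strand. With Spearman's rho in place of Pearson's r, 3 of the 10 genes were among the 10 closest, and without 1 library in turn 6 to 9 were.

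**Figure D4:**
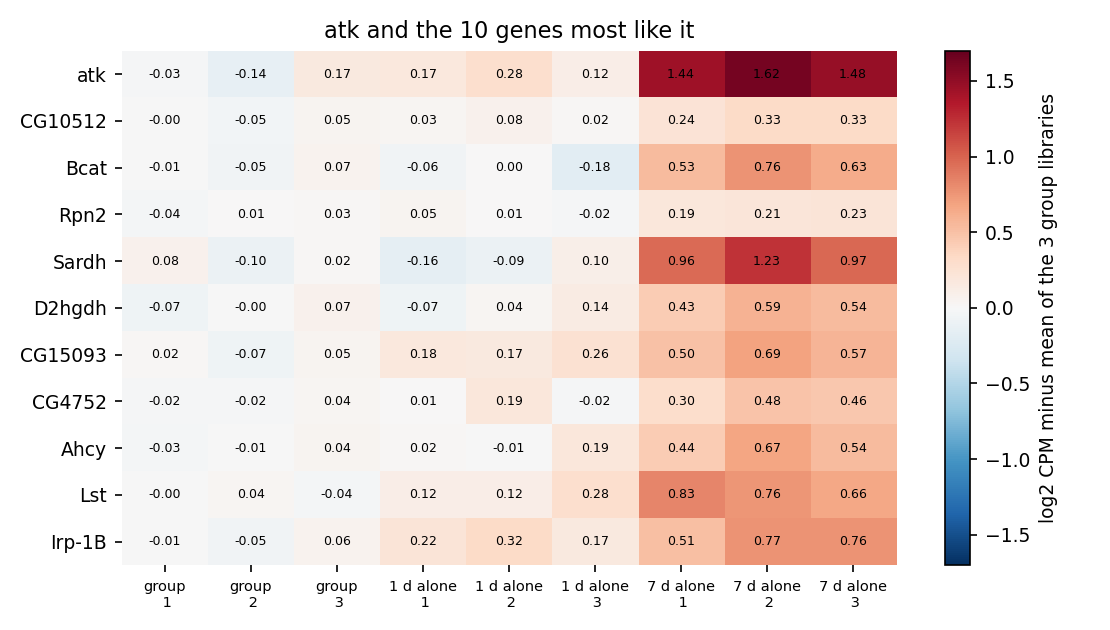
Log2 CPM of atk and of the 10 genes with the highest Pearson r with it, in each of the 9 libraries, as the difference from the mean of the 3 group libraries (colour and printed value). The 3 columns of 7 days alone are the highest in each row, which follows from choosing the genes by r over these same libraries. The row of atk, itself chosen with its rise known, has the deepest colour.

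Genes of the matrix and of cell adhesion were compared with atk. Of 42 listed, 39 were found and 38 tested. Perlecan (trol), scb and AdamTS-A had no row of that symbol and were not analysed, though they may be counted under other names. At 7 days alone minus group 0 of 38 passed by the edgeR test, with 2 at an unadjusted p under 0.05, 1 with DESeq2 and 0 with limma-voom, against 0.247% higher and 0.054% lower among all tested genes. Their median log2 difference was -0.01 against 0.01 for all tested genes, with a range of -0.16 to 0.71, below that of atk throughout. Collagen IV is the network-forming protein of basement membranes. Its chain Col4a1 was at 217.5 ± 20 CPM in the group and 221.5 ± 11.9 CPM after 7 days alone (SD, n = 3), and vkg, the other chain, differed by 0.01 (adjusted p = 0.991, edgeR). The laminin chain LanA differed by -0.0006, the collagen-binding SPARC by 0.04, the integrin subunit mys by -0.01 and the apical matrix protein dpy by -0.12.

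After 1 day alone, when atk was near its group level, 4 of 38 matrix genes rose and 0 fell, against 1.25% and 2.71% of all tested genes. They were Loxl2 (a lysyl oxidase, which cross-links collagen), Col4a1, the laminin chain LanB2 and the matrix metalloproteinase Mmp1. Loxl2 rose by 1.04 (log2, SE 0.121, adjusted p = 0.00552, edgeR), from 11.7, 10.2 and 12.02 CPM in the group to 22.4, 21.4 and 25.7 CPM, and was at 15.0, 15.9 and 12.3 CPM after 7 days alone. Col4a1 rose by 0.69 (adjusted p = 0.0123), LanB2 by 0.43 (0.046) and Mmp1, whose exons overlap Pof on the other strand over 5.87% of their bases, by 0.41 (0.046). Loxl2 kept its call in all 9 fits that left out 1 library and lost it in the libraries with body tissue alone (0.0676). Col4a1 lost it in 3, with an adjusted p of up to 0.0625, LanB2 in 5 (up to 0.178) and Mmp1 in 6 (up to 0.154). Summed markers of muscle, glia, haemocytes and photoreceptors also did not overlap the group after 1 day alone. Of these lists, only that of muscle had single genes that passed the edgeR test there. The part of these tissues in the results for these matrix genes was not tested.

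At 7 days minus 1 day alone, 2 of 38 matrix genes rose and 4 fell, against 3.11% and 1.51% of all tested genes. Glt, the matrix protein glutactin, rose by 0.44 (adjusted p = 0.0239, edgeR) and the laminin chain wb by 0.60 (0.0398). Loxl2 fell by 0.69 (0.0241), Col4a1 fell by 0.66 (0.0145), Mmp1 fell by 0.41 (0.0419) and Tig, the integrin ligand Tiggrin, fell by 0.70 (0.0312). Exons of Tig overlap CG13982 on the other strand over 2.24% of their bases. Each of these 6 calls was lost in some of the 9 fits that left out 1 library, from 3 fits for Col4a1 (adjusted p up to 0.135) to 8 for wb (up to 0.236). The number called was 0 without replicate 2 or 3 of 7 days alone, or without replicate 2 of 1 day alone, 1 without group replicate 2 and 2 without replicate 1 of 7 days alone. At 1 day minus group it was 1 without group replicate 2, replicate 3 of 7 days alone or replicate 2 of 1 day alone. It was 2 without group replicate 1 or replicate 2 of 7 days alone, and 7 without replicate 3 of 1 day alone. Over all genes, 881 were called there without replicate 3 of 1 day alone and 137 without replicate 3 of 7 days alone, against 513 in the main fit. Between the isolation times 101 and 72 of all genes were called without replicate 2 and 3 of 7 days alone, respectively, against 599.

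Genes of other extracellular leucine-rich repeat proteins, the class to which atk belongs, were also tested. Of 35 listed, 33 were found and 32 tested. At 7 days alone minus group 0 of 32 passed by the edgeR test (3 at an unadjusted p under 0.05, 1 with DESeq2, 0 with limma-voom), against 0.247% higher and 0.054% lower among all tested genes, with a median log2 difference of -0.06 and a maximum of 0.36. At 1 day alone minus group 0 rose and 3 fell, with a median of -0.07, where 1.25% of all tested genes rose and 2.71% fell. They were cDIP, a secreted binding partner of Dpr cell surface proteins, ltl, and the photoreceptor adhesion protein chp.

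cDIP was at 62.0, 64.0 and 67.0 CPM in the group, 35.5, 38.2 and 39.7 CPM after 1 day alone, and 63.5, 65.3 and 63.0 CPM after 7 days alone. Its 1-day libraries lay below all others and its 7-day libraries within the range of the group. It fell by 0.77 (log2, SE 0.0498, adjusted p = 0.001, edgeR) at 1 day minus group and rose by 0.76 (SE 0.0498, adjusted p = 0.00189) from 1 day to 7 days alone, and kept both calls in all 9 fits that left out 1 library and in 12 other alternatives. The log2 difference of atk was 0.19 at 1 day minus group and 1.32 between the isolation times. ltl fell by 0.36 (adjusted p = 0.0102) at 1 day minus group and rose by 0.30 (0.019) from 1 day to 7 days alone, which made 2 of 32 that rose and 0 that fell there, with a median of 0.01, against 3.11% and 1.51% of all tested genes. chp fell by 0.42 (0.0201) at 1 day minus group. ltl lost its call in 2 of the 9 fits at 1 day minus group (without replicate 2 or 3 of 7 days alone, adjusted p up to 0.103) and in 5 between the isolation times (up to 0.28), and chp in 8 (up to 0.126). The number called at 1 day minus group was 1 without replicate 2 or 3 of 7 days alone. Between the isolation times it was 1 without group replicate 2, replicate 2 or 3 of 7 days alone or replicate 1 of 1 day alone, and 5 without replicate 3 of 1 day alone. Over all genes these fits called 166, 101, 72, 341 and 1167 between the isolation times, in that order, against 599 in the main fit. The summed photoreceptor markers, 61700 to 61830 CPM in the group and 48290 to 56030 CPM after 1 day alone, did not overlap there either, and their part in the result for chp was not tested.

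Genes of ciliated sensory organs, the structures in which atk is known from the embryo, were called at about the share of all genes. Of 38 listed, 37 were found and 33 tested. At 7 days alone minus group 0 of 33 passed by the edgeR test (3 at an unadjusted p under 0.05, 0 with DESeq2, 0 with limma-voom), where 0.247% of all tested genes were higher and 0.054% lower, with a median log2 difference of 0.06 and a maximum of 0.71. nompA, which encodes a matrix protein that joins the sensory ending to the cuticle, was at 9.45 ± 0.0967 CPM in the group, 8.18 ± 0.402 CPM after 1 day alone and 9.08 ± 0.283 CPM after 7 days alone (SD, n = 3). Its log2 difference at 7 days alone minus group was -0.06 (adjusted p = 0.88). eys, a matrix protein that fills the space around photoreceptor and sensory endings, differed by -0.07, and the mechanotransduction channel nompC by -0.04. The list had a median level of 0.661 CPM per kb, against 8.42 for all tested genes, so changes in it could go uncalled. How much antennal tissue the libraries held was not tested.

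Over the other comparisons of this list, only Dhc93AB, an axonemal dynein heavy chain, passed. It fell by 0.71 (log2, adjusted p = 0.02, edgeR) at 1 day alone minus group, as 1 of 33 with a median of -0.09, against 2.71% of all tested genes. It rose by 0.58 (adjusted p = 0.0396) from 1 day to 7 days alone, as 1 of 33 with a median of 0.13, against 3.11% of all tested genes. Both counts are near the share of all genes. Its level was 3.65, 3.47 and 3.68 CPM in the group, 2.15, 2.21 and 2.23 CPM after 1 day alone, and 3.30, 3.46 and 3.10 CPM after 7 days alone. The former call was lost in 8 of the 9 fits that left out 1 library (adjusted p up to 0.173) and the latter in all 9 (up to 0.266). Without replicate 3 of 1 day alone, 2 genes of the list were called at 1 day minus group, where 881 of all 13187 genes tested in that fit were called.

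Per kilobase of exon and over all 9 libraries, atk had a mean of 10.3 CPM per kb, against a median of 8.42 for all 12963 tested genes. Of the matrix genes 27 of 38 lay above it (median 20.6 CPM per kb), of the leucine-rich repeat genes 17 of 32 (median 11.5) and of the ciliated organ genes 4 of 33 (median 0.661). In no member of the 3 lists was the log2 change as high as in atk at 7 days minus group or at 7 days minus 1 day alone. At 1 day minus group, 10 matrix genes, 2 leucine-rich repeat genes and 6 ciliated organ genes had a higher value than the 0.19 of atk.

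**Figure D5:**
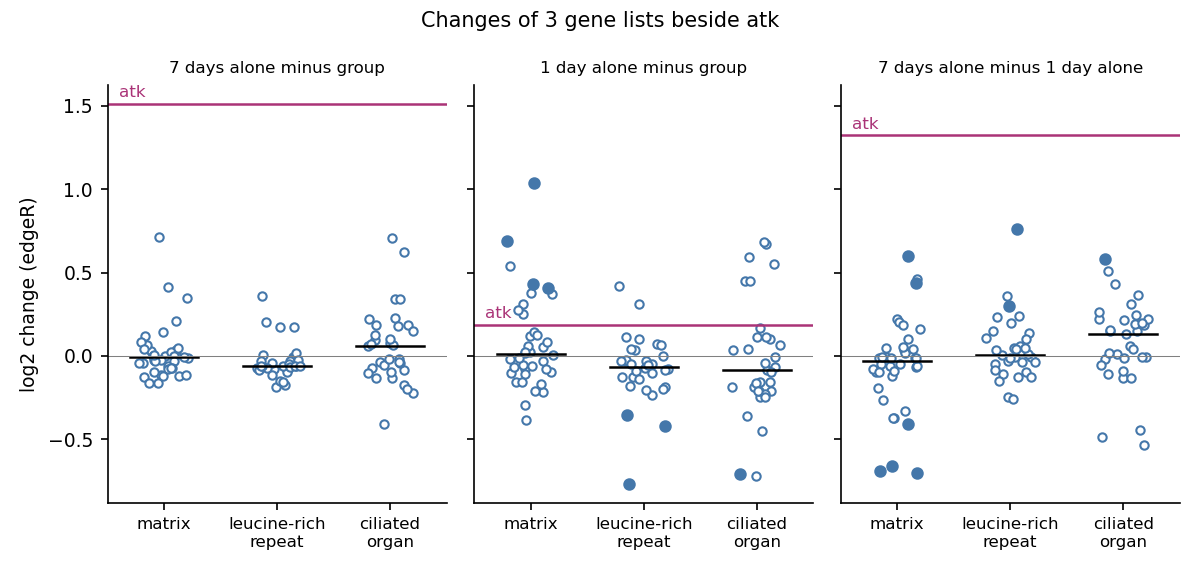
Log2 change (edgeR) of each tested gene of 3 lists, matrix and adhesion (38), extracellular leucine-rich repeat (32) and ciliated sensory organ (33), in the 3 comparisons, with points spread sideways for legibility. Filled points passed the threshold (adjusted p under 0.05), black bars are list medians and the coloured line is the value of atk. The line of atk lies above every point at 7 days minus group (1.51) and at 7 days minus 1 day alone (1.32), and among the points at 1 day minus group (0.19).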

How the data were processed

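RNA was measured in 9 whole-head libraries prepared by the TruSeq stranded mRNA LT kit, per the labels' protocols. Per the submitters' processing notes, the authors used bcl2fastq 2.20, STAR 2.4.2a for alignment and featureCounts for counting. Not given in the sources used here are build, annotation release and the settings for strand and multi-mapped reads. The deposited values are raw whole-number counts for each gene in each library, with the exon length of each gene in bases as another deposited column. Symbols and gene models came from the BDGP6 annotation of Ensembl, in which 17144 of 17490 genes had the span and strand of the deposited table and 17288 had a symbol.

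From the deposited counts, 12963 genes passed edgeR's filterByExpr, and the quasi-likelihood test of edgeR 4.0.16 (R 4.3.3) was fitted to all 9 libraries with TMM scaling and the group as the only term. A gene was called at a two-sided Benjamini-Hochberg adjusted p under 0.05 over all tested genes. For atk the SE comes from the spread of log2 CPM between libraries. Log2 CPM used a prior count of 2. A library was taken to hold body tissue where its gut and male tract markers summed to over 50 CPM. Intervals (95% Poisson) cover counting error only. Nothing in the labels says that replicates were separate cultures of flies, so p-values measure the spread between these libraries, which may be technical. For ninaE the SE of the test was wider than that spread.

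The gene, the lists and the tests were chosen with earlier results of these data known. Named genes were atk, its overlapping and 5 nearest genes on either side, the 10 genes with the highest r with atk, up to 6 called members of each list per comparison by p, and nompA, eys, dpy, nompC, vkg, Col4a1, LanA, SPARC, Mmp1 and mys whatever their values. Listed genes without a row of the same symbol (trol, AdamTS-A, scb, lambik, 18w and che-13) were not analysed here. The alternatives were RLE, upper quartile and total-count scaling, no filter or 1 CPM in 3 libraries, DESeq2 1.42.0, voom of limma 3.58.1, a replicate block, only the groups compared, a term for body tissue, only the libraries with or without it, and each library left out. The fit was also run on simulated data. Those had the same spread setting for all genes and no body tissue difference, so that run does not give the error rates for these data. Figures were drawn with matplotlib 3.10.9 and pandas 2.3.3 in Python 3.11.15.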

Additional observations from a re-analysis of the deposited data

How the results depend on the processing

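The log2 difference of atk was 1.48 to 1.58 at 7 days alone minus group over 12 alternatives and 1.38 to 1.59 without 1 library in turn. At 1 day alone minus group it was 0.091 to 0.33 without 1 library, 0.39 in the libraries with body tissue and 0.062 in those without, the extremes of the 12 alternatives. At 7 days minus 1 day alone it was 1.21 to 1.37 without 1 library, 1.19 in the libraries with body tissue and 1.49 in those without. Some differences near 0 that were called in neither fit changed sign. Uhg8 at 7 days minus group went from -0.07 to 0.11 without body tissue, and CG42764 at 1 day minus group from 0.16 to -0.07 with it. A reversal was counted only where the main fit or the alternative called the gene. By that rule CG5969 at 1 day minus group reversed to 0.26, and eys (0.38) and LanB2 (0.19) reversed at 7 days minus 1 day alone. All of these reversals came from the fit of the libraries without body tissue. That fit has 1 library each of 7 days and 1 day alone, and the fit with body tissue 1 group library. A lone library is assumed there to vary like the others. Over all genes the fit without body tissue called 827, 5606 and 4718 genes and DESeq2 328, 1575 and 1505, against 39, 513 and 599.

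Counts of called genes moved as follows. At 7 days alone minus group, DESeq2 called 1 leucine-rich repeat gene, 1 matrix gene and 2 neighbours of atk. The libraries without body tissue gave 1 ciliated organ gene, 3 leucine-rich repeat genes, 4 matrix genes and 4 neighbours (mag, CG42764, Tdh and ZnT77C), and those with it 0 neighbours. At 1 day alone minus group, the number of ciliated organ genes was 0 with no filter, with only the groups compared and in the libraries with body tissue. It was 2 with the 1 CPM filter, voom or the body tissue term, 4 with DESeq2 and 10 without body tissue. Leucine-rich repeat genes numbered 1 with only the groups compared or with body tissue and 21 without it. Matrix genes numbered 8 with DESeq2, 1 with only the groups compared and 20 without body tissue, and neighbours 1 with and 4 without it. At 7 days minus 1 day alone, ciliated organ genes numbered 0 with upper quartile or total scaling, no filter, only the groups compared or body tissue, 2 with DESeq2 and 4 without body tissue. Leucine-rich repeat genes numbered 6 with DESeq2, 1 with only the groups compared or with body tissue and 19 without it. Matrix genes numbered 0 with only the groups compared and 17 without body tissue, and neighbours 1 with the 1 CPM filter, DESeq2 or the body tissue term and 3 without body tissue. In the fit without body tissue 11133 genes were tested, and with DESeq2 12963. In both fits the number called over all genes, given above, was also higher than in the main fit in each comparison. The higher list counts of these fits are therefore not particular to the lists. The cause of the changes in the counts was not tested.

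Without 1 library in turn, counts at 7 days minus group were 0 to 0 for each list and 0 to 2 for neighbours. At 1 day minus group they were 0 to 2 for ciliated organ, 1 to 3 for leucine-rich repeat and 1 to 7 for matrix genes, and 0 to 2 for neighbours. Between the isolation times they were 0 to 1, 1 to 5, 0 to 8 and 0 to 1 in that order. The number called over all genes moved too. It was 3 to 193 at 7 days minus group, 137 to 881 at 1 day minus group and 72 to 1167 between the isolation times.

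Deviations of equally numbered libraries correlated at -0.243 to 0.0461 (9 pairs, 10010 genes). Unequally numbered pairs were not set beside them, so these values cannot settle whether replicate numbers mark a shared batch. A block for the number called 0 genes at 7 days minus group (637 at an unadjusted p under 0.05), 162 at 1 day minus group and 126 between the isolation times. With the block, neighbours numbered 0 at 7 days minus group. At 1 day minus group, 0 ciliated organ, 1 leucine-rich repeat and 1 matrix gene and 1 neighbour were called with the block. Between the isolation times these were 0, 1 and 0 for the 3 lists with the block. Depth limits neighbours under about 2 CPM, such as CG42764 and Uhg8.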
